A study of Homo sapiens with 9 samples.

Results

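The 48 genes described here encode the working parts of the lysosome and of autophagy: 19 acid hydrolases and their helpers, 11 proteins of the lysosomal membrane and its proton pump, 2 transcription factors and 16 proteins of the autophagy machinery. They were taken by symbol from a deposited expression table of 18064 genes, and all 48 were in it and reached the level needed for testing. The table covers 9 RNA sequencing libraries of human cells, whose titles give the name MDA-MB-231/PTX. MDA-MB-231 is a triple-negative breast cancer line. The titles do not spell out PTX, which may stand for paclitaxel or resistance to it. Other labels name a lung line, so the identity of the cells is not settled. By the titles, 3 libraries each came from cells given the small interfering RNA (siRNA) si1-BCLIN25, the siRNA si2-BCLIN25 or the control siRNA si-NC. The titles name the RNA BCLIN25 for both of the former. The growth medium, which the titles do not give, was RPMI with fetal bovine serum. No label gives the time after transfection or says whether replicates were separate cultures. The p-values therefore cover only the spread among these libraries, which may be technical.

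Lysosomes are acidic organelles in which hydrolases break down proteins, glycans and lipids, and a proton pump in their membrane, the V-ATPase, keeps them acidic. Autophagy wraps cytoplasm in a membrane that is decorated with ATG8 proteins by a chain of conjugating enzymes, and then fuses with the lysosome. TFEB and TFE3, transcription factors held in the cytoplasm by the growth kinase complex mTORC1, bind the sequence motif known as the CLEAR element in the promoters of many lysosomal genes. In cancer cells these organelles supply nutrients, shape drug handling and secrete proteases.

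For these libraries, source and characteristics fields instead give the lung line PC9/GR and knockdown of HUMT, so neither the cells nor the targeted RNA is settled by the labels, and BCLIN25 was not analysed here. Epithelial genes were abundant, with CDH1 between 31.4 and 46.5 FPKM. CDH1, KRT19 and ESRP1 were higher in both siRNA groups than in si-NC, and EPCAM, KRT8 and KRT18 were lower. Of the mesenchymal genes usual in MDA-MB-231, ZEB1 was at or below 0.14 FPKM. In ZEB1 and in the epithelial genes the libraries are unlike the line that the titles name. In si1-BCLIN25, si2-BCLIN25 and si-NC, MSN averaged 3.98, 4.15 and 72.9 FPKM and VIM 14.2, 22.4 and 80.9 FPKM. CDH2 averaged 23.6, 21.9 and 67.1 FPKM and AXL 51.3, 58.9 and 97 FPKM in that order. Fibroblast markers summed to 27.8 to 29.6, 26.8 to 28.5 and 15.2 to 16.5 FPKM in the same order of groups. Most of this came from THY1 (means of 13.6, 14.7 and 11.3 FPKM), COL1A1 (9.32, 8.67 and 3.75) and LUM (4.97, 4.01 and 0.50). DCN and PDGFRB lay at or below 0.47 FPKM, and COL1A2 and COL3A1 at or below 0.04 FPKM. Endothelial markers summed to at most 0.3 FPKM. The part of these markers in the results was not tested. FPKM, a fragment count scaled by transcript length and library size, added up to 394081 to 419025 in each library, and the depth in reads is unknown. Genes at 1 FPKM or more numbered 12091 to 12111 in si1-BCLIN25, 12113 to 12139 in si2-BCLIN25 and 11812 to 11856 in si-NC. The main fit used FPKM without further scaling between libraries, so small fold changes can include an offset between groups. Results under 3 other scalings are given below. An unexplained header prefix marks the 3 si-NC columns alone, and handling and group cannot be told apart. These 3 libraries serve as the control in each siRNA comparison.

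Among genes of the lysosome, the promoter stretches that follow are shown because they hold the letters of the CLEAR element or, for GABARAPL1, lack them. RefSeq windows of 300 bases around the start of transcription (GRCh38.p14) were available for 39 of the 48 genes. The genes without a window were CTSB, CTSS, HEXA, ASAH1, PSAP, LAMP2, ATP6V1A, ATP6V1B2 and ATP6V1H. The stretches hold the bases just before the start, 5′ to 3′ on the strand of the gene, and capitals mark TCACGTG on either strand. GAA and MCOLN1 hold the full palindromic form of the element, GAA at 2 places and MCOLN1 at 1. LAMP1 has 5 copies of CACGTG in its stretch, and GABARAPL1, the gene of the set with the steepest rise, has 0.
GAA (chr17:80101491-80101580, plus strand): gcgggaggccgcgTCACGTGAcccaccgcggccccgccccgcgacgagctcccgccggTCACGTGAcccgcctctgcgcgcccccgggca
LAMP1 (chr13:113297039-113297238, plus strand): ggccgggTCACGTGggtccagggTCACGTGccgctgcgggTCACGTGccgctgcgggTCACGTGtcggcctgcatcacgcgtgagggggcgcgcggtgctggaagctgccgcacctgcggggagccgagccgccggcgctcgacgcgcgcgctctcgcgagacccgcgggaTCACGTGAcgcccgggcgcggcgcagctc
CTSD (chr11:1763928-1764017, minus strand): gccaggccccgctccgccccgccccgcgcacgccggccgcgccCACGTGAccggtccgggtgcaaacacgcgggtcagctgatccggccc
CLN3 (chr16:28492075-28492164, minus strand): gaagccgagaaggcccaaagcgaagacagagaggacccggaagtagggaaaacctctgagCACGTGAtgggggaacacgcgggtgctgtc
MCOLN1 (chr19:7522534-7522623, plus strand): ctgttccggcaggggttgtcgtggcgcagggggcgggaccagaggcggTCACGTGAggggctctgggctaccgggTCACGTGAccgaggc
NEU1 (chr6:31862822-31862961, minus strand): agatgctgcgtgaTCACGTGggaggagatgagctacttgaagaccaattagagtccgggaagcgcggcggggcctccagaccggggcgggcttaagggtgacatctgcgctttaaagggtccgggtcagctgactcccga
CTSA (chr20:45891245-45891334, plus strand): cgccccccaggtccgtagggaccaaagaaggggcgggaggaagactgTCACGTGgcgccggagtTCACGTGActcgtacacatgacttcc
GABARAPL1 (chr12:10212787-10212876, plus strand): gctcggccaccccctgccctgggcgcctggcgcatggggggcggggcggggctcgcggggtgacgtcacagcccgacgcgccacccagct
The letters CACGTG, the shared core known as an E-box, were found in the windows of 9 of 39 genes (23.1%), against 8.77% of 27305 genes with such a window. All 9 also held the longer TCACGTG, which contains that core, against 4.49% of all genes, and the full palindrome, which contains both, was in 2 (5.13%, against 0.421%). The 9 were GAA, CTSD, CTSA, NEU1, LAMP1, CLN3, MCOLN1, ATP6V0D1 and ATG3. TGACTCA, the motif of AP-1 factors, was found in the window of TFE3 alone among the 39 (2.56%, against 6.05%). All searches covered both strands. The 27305 genes include genes not expressed here. The CLEAR element is known from promoters of lysosomal genes, so its higher share in this set is no separate finding. These matches describe letters only.

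Most lysosome and autophagy genes were higher in the siRNA groups, by modest amounts. Values were compared on the log2(FPKM + 1) scale with limma, and a gene with a Benjamini-Hochberg adjusted p under 0.05 over the 12317 genes tested counts as called here, and the words rose and fell are kept for such genes. In si1-BCLIN25 29 of the 48 rose, 8 fell and 11 did not pass, that is 77.1% called, where 63.1% of all genes tested were called. In si2-BCLIN25 32 rose, 10 fell and 6 did not pass, 87.5% called against 63% of all genes. Of all genes 38.4% rose and 24.6% fell with si1-BCLIN25, against 38.6% and 24.4% with si2-BCLIN25, a split that quantile normalization evened, with 3797 up and 3775 down for si1-BCLIN25, 3814 and 3707 for si2-BCLIN25. Over the 48 genes the median log2 fold change was 0.18 in each siRNA group, beside 0.061 and 0.063 over all genes. The libraries of the siRNA group and si-NC did not overlap for 37 of the 48 genes with si1-BCLIN25, and for 41 with si2-BCLIN25, against 64.7% and 67.1% of all genes. Few of these changes were large. Called with a log2 fold change of at least 0.5 in either direction were 8 of the 48 for si1-BCLIN25, 9 for si2-BCLIN25, with 18.5% and 18% of all genes as the background. Changes of at least 2-fold, a log2 fold change of 1 or more, were called for GABARAPL1 and GAA in each siRNA group, 2 of 48 beside 4.64% and 4.55% of all genes. The set is well expressed: 43 of the 48 genes lay above the median level of the genes tested, with a median of 29.9 FPKM against 11.6 FPKM.

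**Figure D1:**
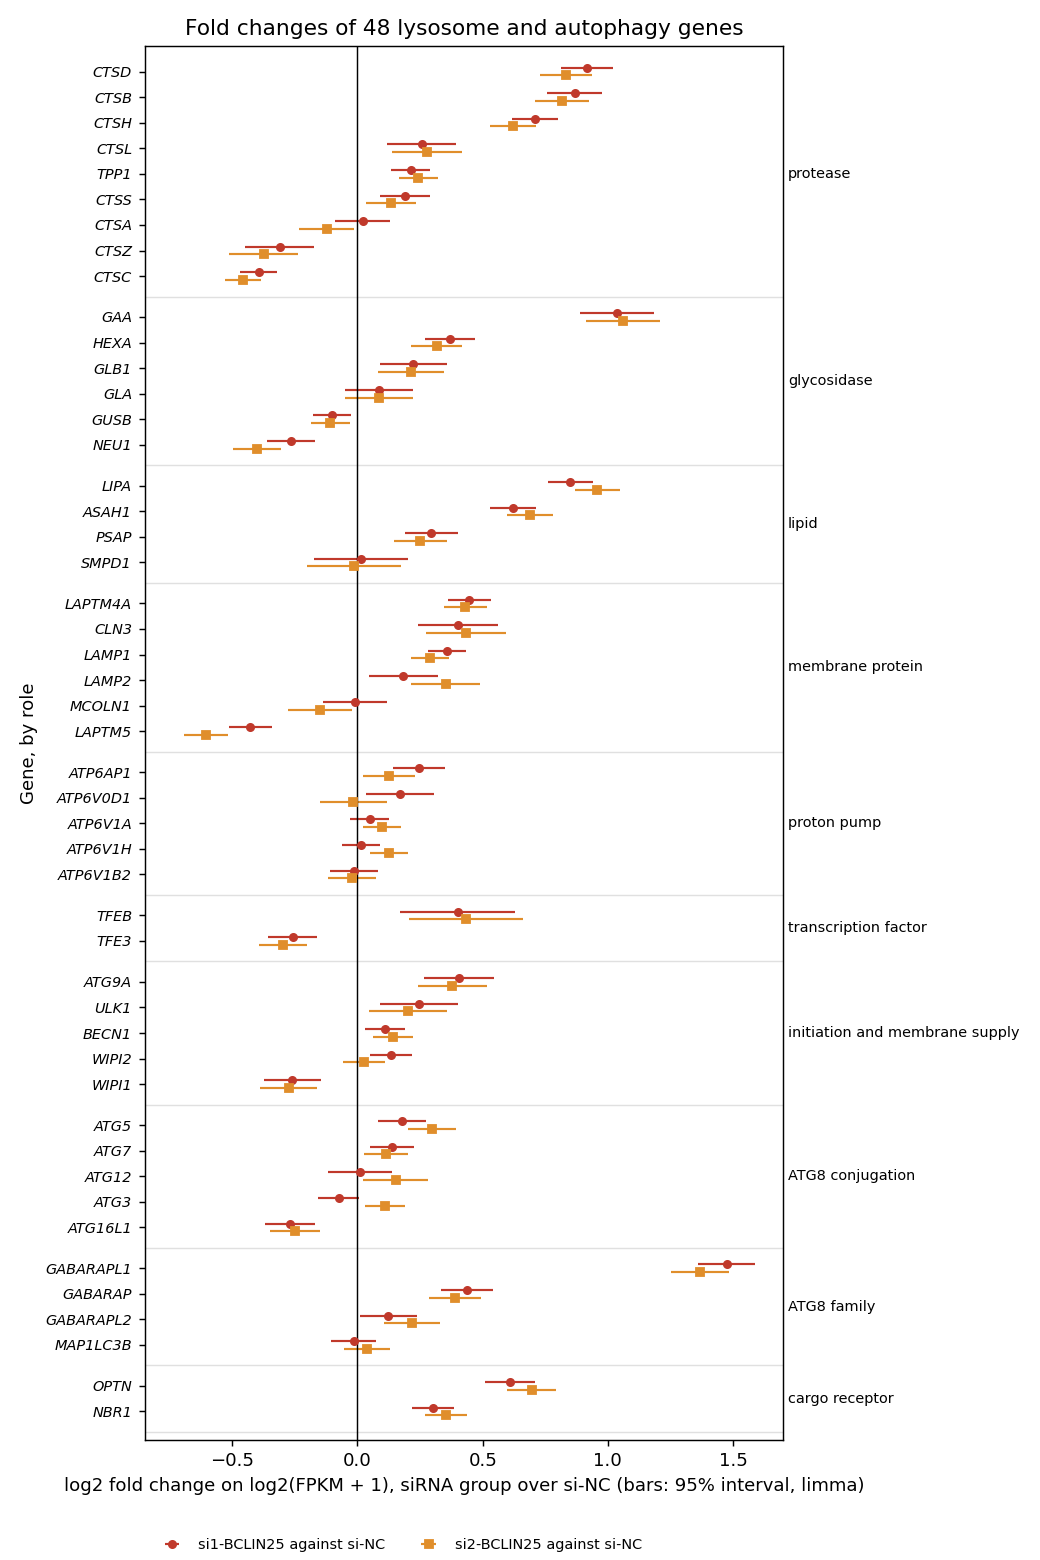
Log2 fold changes on the log2(FPKM + 1) scale (x axis) of the 48 genes, by role (y axis), for si1-BCLIN25 (circles) and si2-BCLIN25 (squares) over si-NC, with 95% intervals from limma. GABARAPL1 lies farthest to the right at 1.47 and 1.37, LAPTM5 farthest to the left at -0.43 and -0.61, and the proton pump genes lie between -0.023 and 0.24.

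The hydrolases rose more often than they fell, and the steepest rises spanned proteases, a glycosidase and lipid-degrading enzymes. Of 19 hydrolase genes 12 were called higher and 4 lower with si1-BCLIN25, while with si2-BCLIN25 12 were called higher and 5 lower. Their medians were 0.22 and 0.24 on the log2 scale. The called share was 84.2% and 89.5%. Of all genes 63.1% and 63% were called, with 38.4% and 38.6% of all genes called higher. Summed over the 19 genes, FPKM was 1442, 1501 and 1487 in the si1-BCLIN25 libraries, 1439, 1427 and 1408 in the si2-BCLIN25 libraries and 1261, 1251 and 1220 in the si-NC libraries. The sums of the siRNA groups lie above every si-NC sum. These sums made up 0.355%, 0.347% and 0.311% of all FPKM in si1-BCLIN25, si2-BCLIN25 and si-NC.

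Cathepsin D (CTSD, gene 1509), the main aspartic protease of lysosomes, stood at 314, 333 and 314 FPKM in the si1-BCLIN25 libraries, 304, 309 and 293 FPKM in the si2-BCLIN25 libraries and 159, 181 and 168 FPKM in the si-NC libraries. All 6 siRNA libraries were above all si-NC libraries, with log2 fold changes of 0.92 and 0.83 (limma adjusted p = 6.0e-09 and 1.6e-08, SE 0.048). Cathepsin B (CTSB, gene 1508), a cysteine protease that tumour cells can also secrete, had 110, 123 and 124 FPKM in the si1-BCLIN25 libraries, 117, 117 and 111 FPKM in the si2-BCLIN25 libraries and 67.5, 64.3 and 62.4 FPKM in the si-NC libraries. Its siRNA libraries did not overlap si-NC either, and its log2 fold changes were 0.87 and 0.82 (limma adjusted p = 1.5e-08 and 2.9e-08, SE 0.05). Cathepsin H (CTSH, gene 1512), an aminopeptidase, had 101, 104 and 104 FPKM in the si1-BCLIN25 libraries, 95.97, 98.96 and 95.8 FPKM in the si2-BCLIN25 libraries and 62.4, 66.6 and 59.3 FPKM in the si-NC libraries. CTSH rose without overlap, by 0.71 and 0.62 (limma adjusted p = 2.1e-08 and 8.0e-08, SE 0.042).

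Cathepsin C and cathepsin Z went the other way. Cathepsin C (CTSC, gene 1075), a dipeptidyl peptidase that activates serine proteases of immune cells, had 289, 281 and 280.4 FPKM in the si1-BCLIN25 libraries, 275, 269 and 270.2 FPKM in the si2-BCLIN25 libraries and 374, 364 and 381 FPKM in the si-NC libraries. The siRNA libraries were all below the si-NC libraries, with log2 fold changes of -0.39 and -0.46 (limma adjusted p = 5.4e-07 and 1.5e-07, SE 0.033). CTSC was the most abundant of the 48 genes in si-NC, and in each siRNA group CTSD stood above it: 314 to 333 FPKM for CTSD against 280 to 289 FPKM for CTSC in si1-BCLIN25, and 293 to 309 FPKM against 269 to 275 FPKM in si2-BCLIN25. CTSZ (gene 1522), a carboxypeptidase, averaged 93.7 ± 7.1 FPKM in si1-BCLIN25, 89.5 ± 3.1 FPKM in si2-BCLIN25 and 117 ± 9.9 FPKM in si-NC (SD, n = 3 each). It fell by 0.31 and 0.37 on the log2 scale (limma adjusted p = 0.000998 and 0.000245, SE 0.064), and the 3 si-NC libraries lay above the rest. CTSZ lies on chromosome 20 among 50 tested neighbours whose median log2 fold change was also below 0, at -0.20 and -0.23, and the part of the neighbourhood in its fall was not tested.

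The remaining proteases moved little. CTSL, a cysteine protease of broad specificity, averaged 56.2 ± 3.4 FPKM in si1-BCLIN25, 57.03 ± 0.54 FPKM in si2-BCLIN25 and 47.03 ± 4.9 FPKM in si-NC (SD, n = 3 each), and rose by 0.26 and 0.28 (limma adjusted p = 0.0037 and 0.00216). Tripeptidyl peptidase 1 (TPP1) averaged 34.9 ± 0.55 FPKM in si1-BCLIN25, 35.6 ± 1 FPKM in si2-BCLIN25 and 29.9 ± 0.32 FPKM in si-NC (SD, n = 3 each) and rose by 0.21 and 0.24 (limma adjusted p = 0.000215 and 7.3e-05). CTSS, a protease best known from antigen-presenting cells, was at 18.3 to 19.2 FPKM in si1-BCLIN25, 17.7 to 18.4 FPKM in si2-BCLIN25 and 15.5 to 17.3 FPKM in si-NC. CTSS rose by 0.19 and 0.13, and its si2-BCLIN25 call was lost when si2-BCLIN25 replicate 2 or si-NC replicate 2 or 3 was left out (limma adjusted p = 0.0836, 0.0916 and 0.0558) and in all 3 other scalings (0.0565 to 0.151). The 50 tested neighbours of CTSS on chromosome 1 had medians of 0.22 and 0.21, above its own changes, and their part was not tested. CTSA, which protects other hydrolases and carries 2 E-boxes in the stretch shown, did not pass in si1-BCLIN25 (0.021, limma adjusted p = 0.734). In si2-BCLIN25 CTSA fell by 0.12 (limma adjusted p = 0.0475), with overlapping groups, and this call was lost on leaving out any library other than si1-BCLIN25 replicate 2 or si-NC replicate 3 (limma adjusted p of 0.0529 to 0.169) and under quantile normalization (0.0859). The 50 tested neighbours of CTSA on chromosome 20 had medians of -0.097 and -0.15.

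Acid alpha-glucosidase (GAA, gene 2548), which degrades glycogen in lysosomes, had the largest change among hydrolases, with 30.9, 28.9 and 27.5 FPKM in the si1-BCLIN25 libraries, 29.8, 29.5 and 29.3 FPKM in the si2-BCLIN25 libraries and 12.1, 15.3 and 13.7 FPKM in the si-NC libraries. The lowest siRNA library was well above the highest si-NC library, and the log2 fold changes were 1.04 and 1.06 (limma adjusted p = 4.9e-08 and 4.3e-08, SE 0.068). HEXA, a beta-hexosaminidase subunit that degrades gangliosides, had 28.5, 30.1 and 28.9 FPKM in the si1-BCLIN25 libraries, 29.9, 27.2 and 27.2 FPKM in the si2-BCLIN25 libraries and 22.9, 22.7 and 21.4 FPKM in the si-NC libraries, a rise of 0.37 and 0.32 (limma adjusted p = 2.0e-05 and 7.5e-05). GLB1, the beta-galactosidase, had 19.6, 22.9 and 23.2 FPKM in the si1-BCLIN25 libraries, 21.5, 22.4 and 21.3 FPKM in the si2-BCLIN25 libraries and 19.7, 17.6 and 18.5 FPKM in the si-NC libraries and rose by 0.22 and 0.21 (limma adjusted p = 0.00688 and 0.00879), with 1 si1-BCLIN25 library inside the si-NC range. The sialidase NEU1 (gene 4758) had 11.3, 11.6 and 11.7 FPKM in the si1-BCLIN25 libraries, 10.2, 10.2 and 10.8 FPKM in the si2-BCLIN25 libraries and 13.7, 14.6 and 13.8 FPKM in the si-NC libraries. NEU1 fell without overlap, by 0.27 and 0.40 on the log2 scale (limma adjusted p = 0.0002 and 6.3e-06, SE 0.044), whereas the 50 tested genes around it on chromosome 6 had medians above 0 (0.27 and 0.21). GUSB, the beta-glucuronidase, fell slightly, by 0.10 and 0.11 (limma adjusted p = 0.024 and 0.0181), at 28.0 to 29.3 FPKM in the siRNA libraries and 30.6 to 31.4 FPKM in si-NC. The GUSB calls were lost without si1-BCLIN25 replicate 2 or 3 or si-NC replicate 2 in si1-BCLIN25 (0.0743, 0.0529 and 0.0601) and without si2-BCLIN25 replicate 1 in si2-BCLIN25 (0.0776). GLA, the alpha-galactosidase, did not pass in either group (0.086 and 0.084, limma adjusted p = 0.246 and 0.255), although without si1-BCLIN25 replicate 1 it was called in si1-BCLIN25 (0.15, limma adjusted p = 0.0441).

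Lipid degradation gave further rises and no fall. Lysosomal acid lipase (LIPA, gene 3988), which releases cholesterol from its esters, had 28.5, 27.7 and 29 FPKM in the si1-BCLIN25 libraries, 31.2, 30.1 and 30.6 FPKM in the si2-BCLIN25 libraries and 14.9, 14.9 and 16.1 FPKM in the si-NC libraries. The groups were far apart, and the log2 fold changes were 0.85 and 0.96 (limma adjusted p = 2.6e-09 and 9.4e-10, SE 0.041). Acid ceramidase (ASAH1, gene 427) had 32.5, 31.6 and 32.2 FPKM in the si1-BCLIN25 libraries, 32.4, 34.6 and 34.1 FPKM in the si2-BCLIN25 libraries and 19.6, 21.1 and 20.9 FPKM in the si-NC libraries. ASAH1 rose without overlap, by 0.62 and 0.69 (limma adjusted p = 6.1e-08 and 2.5e-08, SE 0.042). Prosaposin (PSAP), the precursor of the saposins that present lipids to their enzymes, had 180.2, 197 and 192 FPKM in the si1-BCLIN25 libraries, 187, 180.1 and 185 FPKM in the si2-BCLIN25 libraries and 163, 157 and 144 FPKM in the si-NC libraries, up by 0.29 and 0.25 (limma adjusted p = 0.000186 and 0.00067). The acid sphingomyelinase SMPD1 did not pass (0.014 and -0.014, limma adjusted p = 0.897 and 0.896), at 7.61 to 9.84 FPKM over all 9 libraries.

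**Figure D2:**
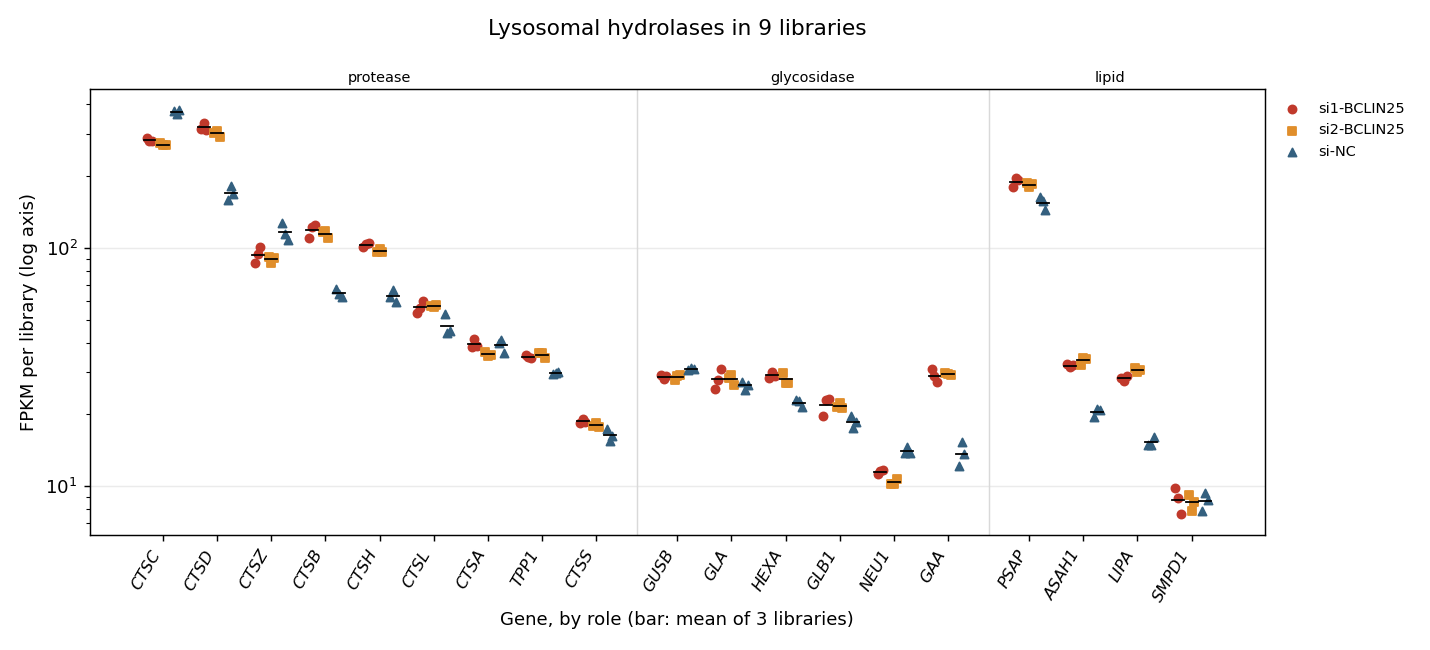
FPKM per library (y axis, log scale) of 19 hydrolase genes (x axis), by role, with si1-BCLIN25 circles, si2-BCLIN25 squares, si-NC triangles and a bar at each mean of 3 libraries. CTSD, CTSB, CTSH, GAA, ASAH1 and LIPA show siRNA libraries clear of and above si-NC, and CTSC, CTSZ, NEU1 and GUSB show them below.

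Membrane proteins of the lysosome rose, apart from LAPTM5 and MCOLN1. With the proton pump, 6 of 11 genes were called higher and 1 lower with si1-BCLIN25, 7 and 2 with si2-BCLIN25. That is 63.6% and 81.8% called, beside 63.1% and 63% of all genes. Median centring or a common FPKM sum left 4 higher and 1 lower with si1-BCLIN25, 4 and 2 with si2-BCLIN25. LAMP1 (gene 3916), a heavily glycosylated protein that lines the lysosomal membrane, had 209, 205 and 215 FPKM in the si1-BCLIN25 libraries, 204, 197 and 199 FPKM in the si2-BCLIN25 libraries and 159.8, 168 and 162 FPKM in the si-NC libraries. No siRNA library overlapped si-NC, with log2 fold changes of 0.36 and 0.29 (limma adjusted p = 2.3e-06 and 1.5e-05, SE 0.035). LAMP2, its relative that also serves chaperone-mediated autophagy, had 70.1, 62.4 and 62.4 FPKM in the si1-BCLIN25 libraries, 69.96, 75.1 and 74.2 FPKM in the si2-BCLIN25 libraries and 52.3, 56.97 and 62.2 FPKM in the si-NC libraries. LAMP2 had its highest mean in si2-BCLIN25 and rose by 0.18 and 0.35 (limma adjusted p = 0.022 and 0.000349). Its si1-BCLIN25 call was lost without si1-BCLIN25 replicate 1 or si-NC replicate 1 (0.0995 and 0.0914) and under median centring or a common FPKM sum (0.07 and 0.123). LAPTM4A, a small lysosomal membrane protein, had 142, 148 and 144 FPKM in the si1-BCLIN25 libraries, 139, 144 and 146 FPKM in the si2-BCLIN25 libraries and 111, 102 and 105 FPKM in the si-NC libraries. LAPTM4A rose by 0.45 and 0.43 (limma adjusted p = 8.8e-07 and 1.3e-06, SE 0.04), while its 50 tested neighbours on chromosome 2 had medians of -0.16 and -0.17. CLN3, a protein lost in juvenile neuronal ceroid lipofuscinosis, had 15.3, 16.3 and 13.1 FPKM in the si1-BCLIN25 libraries, 14.95, 16.2 and 14.5 FPKM in the si2-BCLIN25 libraries and 11.4, 11.4 and 10.3 FPKM in the si-NC libraries and rose by 0.40 and 0.43 (limma adjusted p = 0.000436 and 0.00024).

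LAPTM5 (gene 7805), a relative of LAPTM4A usually found in blood cells, fell. It had 40.8, 42.1 and 41.9 FPKM in the si1-BCLIN25 libraries, 37.1, 36.7 and 36.3 FPKM in the si2-BCLIN25 libraries and 57.7, 58.02 and 53.2 FPKM in the si-NC libraries. The 3 groups do not overlap one another, and the log2 fold changes were -0.43 and -0.61 (limma adjusted p = 1.2e-06 and 5.3e-08, SE 0.04). Of 11 leukocyte markers looked for, 8 were analysed here and summed to 3.65 to 4.38 FPKM in si1-BCLIN25, 4.18 to 4.85 FPKM in si2-BCLIN25 and 3.39 to 3.52 FPKM in si-NC. PTPRC, the pan-leukocyte marker, lay between 0.85 and 1.61 FPKM, SPI1 at or below 0.06 FPKM, and CD14 averaged 1.07, 1.10 and 0.33 FPKM in si1-BCLIN25, si2-BCLIN25 and si-NC. In bulk RNA fewer cells expressing a gene and less of its RNA per cell cannot be told apart. The calcium channel MCOLN1, whose stretch holds 2 copies of TCACGTG, did not pass in si1-BCLIN25 (-0.0084, limma adjusted p = 0.91). In si2-BCLIN25 MCOLN1 fell by 0.15 (limma adjusted p = 0.0394), a call lost without si2-BCLIN25 replicate 1 or 3 or si-NC replicate 2 (0.11, 0.0937 and 0.168).

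The proton pump stayed close to its si-NC level. Of 5 genes, si1-BCLIN25 had 2 that rose, si2-BCLIN25 had 3, and 0 fell, with log2 fold changes between -0.023 and 0.24. The called share was 40% and 60%, beside 63.1% and 63% of all genes. ATP6AP1, an assembly factor of the pump, had 58.2, 60.7 and 56.6 FPKM in the si1-BCLIN25 libraries, 57.2, 52.3 and 51.8 FPKM in the si2-BCLIN25 libraries and 50.2, 50.6 and 46.9 FPKM in the si-NC libraries and rose by 0.24 and 0.12 (limma adjusted p = 0.000651 and 0.0359). ATP6V0D1, a subunit of the membrane sector, had 33.4, 37.5 and 32.7 FPKM in the si1-BCLIN25 libraries, 29.1, 30.4 and 30.9 FPKM in the si2-BCLIN25 libraries and 30.4, 33.04 and 28.3 FPKM in the si-NC libraries. It rose in si1-BCLIN25 (0.17, limma adjusted p = 0.0291) with overlapping groups. In si2-BCLIN25 ATP6V0D1 did not pass (-0.017, limma adjusted p = 0.82). ATP6V1A, the catalytic subunit, had 26.9, 26.9 and 26.3 FPKM in the si1-BCLIN25 libraries, 28.4, 27.2 and 27.4 FPKM in the si2-BCLIN25 libraries and 26.1, 25.6 and 25.6 FPKM in the si-NC libraries. ATP6V1H, a regulator, had 46.7, 44.7 and 44.5 FPKM in the si1-BCLIN25 libraries, 48.6, 49.9 and 48.8 FPKM in the si2-BCLIN25 libraries and 45.4, 44 and 45.3 FPKM in the si-NC libraries. Both rose in si2-BCLIN25 by 0.099 and 0.13 (limma adjusted p = 0.0282 and 0.00675) and did not pass in si1-BCLIN25. ATP6V1B2 did not pass in either group. None of the 3 si2-BCLIN25 calls held under median centring or a common FPKM sum (limma adjusted p of 0.0562 to 0.261), and of the si1-BCLIN25 calls only that of ATP6AP1 did. Leaving out si1-BCLIN25 replicate 2 or si-NC replicate 1 or 3 ended the ATP6V0D1 call (0.134, 0.0567 and 0.128), and leaving out si2-BCLIN25 replicate 1 or si-NC replicate 3 ended those of ATP6AP1 (0.17 and 0.138) and ATP6V1A (0.112 and 0.0655) in si2-BCLIN25. The ATP6V1A call was also lost without si2-BCLIN25 replicate 3 or si-NC replicate 2 (0.0554 and 0.0619). The 50 tested neighbours of ATP6V1A on chromosome 3 had medians of 0.11 and 0.12.

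Of the transcription factors, TFEB (gene 7942) was low, with 1.09, 1.12 and 1.61 FPKM in the si1-BCLIN25 libraries, 1.19, 1.57 and 1.2 FPKM in the si2-BCLIN25 libraries and 0.61, 0.85 and 0.69 FPKM in the si-NC libraries. It passed the filter of 1 FPKM in 3 libraries only through its siRNA libraries, so its values are given as a description, although it is counted among the genes called higher. Under quantile normalization neither TFEB call held (limma adjusted p = 0.162 and 0.133). TFE3 (gene 7030), far more abundant, had 16.1, 16.8 and 15.9 FPKM in the si1-BCLIN25 libraries, 15.2, 16.2 and 16 FPKM in the si2-BCLIN25 libraries and 20.3, 19.8 and 18.9 FPKM in the si-NC libraries. TFE3 fell without overlap, with log2 fold changes of -0.26 and -0.30 (limma adjusted p = 0.000237 and 7.8e-05, SE 0.044).

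**Figure D3:**
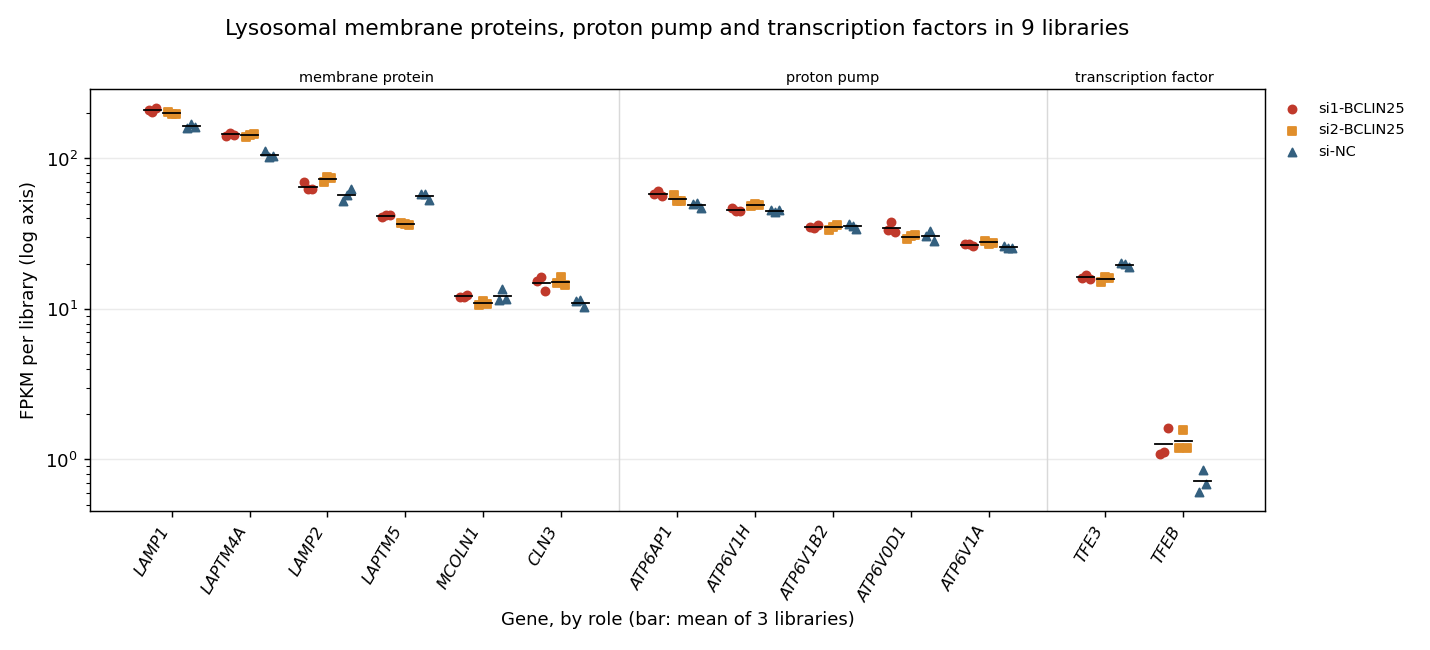
FPKM per library (y axis, log scale) of 6 membrane protein genes, 5 proton pump genes and 2 transcription factor genes (x axis), with si1-BCLIN25 circles, si2-BCLIN25 squares, si-NC triangles and a bar at each mean of 3 libraries. LAMP1 and LAPTM4A lie above si-NC and LAPTM5 and TFE3 below, while TFEB stays at or under 1.61 FPKM in all 9 libraries.

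Of 16 genes of the autophagy machinery 10 were called higher and 2 lower with si1-BCLIN25, while with si2-BCLIN25 12 were called higher and 2 lower. Their medians were 0.14 and 0.18 on the log2 scale. The called share was 75% and 87.5%. Of all genes 63.1% and 63% were called, with 38.4% and 38.6% of all genes called higher. Under median centring and under a common FPKM sum the split in si1-BCLIN25 was 7 higher and 3 lower, and in si2-BCLIN25 it was 7 and 2 under median centring and 8 and 2 under a common FPKM sum. Summed FPKM of the 16 genes was 496, 506 and 511 in the si1-BCLIN25 libraries, 509.9, 512 and 516 in the si2-BCLIN25 libraries and 432, 411 and 429 in the si-NC libraries. GABARAPL1 (gene 23710), an ATG8 protein that coats autophagosomes and recruits receptors, had 26, 28.6 and 29.1 FPKM in the si1-BCLIN25 libraries, 24.5, 25.7 and 27.3 FPKM in the si2-BCLIN25 libraries and 9.7, 9.27 and 9.2 FPKM in the si-NC libraries. The siRNA libraries were far above si-NC, the widest difference among the 48 genes, with log2 fold changes of 1.47 and 1.37 (limma adjusted p = 1.6e-10 and 3.6e-10, SE 0.053). GABARAP (gene 11337), its close relative, had 112, 118 and 119.7 FPKM in the si1-BCLIN25 libraries, 111, 110.3 and 116 FPKM in the si2-BCLIN25 libraries and 89.5, 79.4 and 88.5 FPKM in the si-NC libraries. GABARAP rose without overlap, by 0.44 and 0.39 (limma adjusted p = 5.6e-06 and 1.6e-05, SE 0.048).

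MAP1LC3B (gene 81631), the ATG8 protein most used to mark autophagosomes, did not pass. It had 34.7, 33.6 and 36.5 FPKM in the si1-BCLIN25 libraries, 37.9, 35.2 and 35.8 FPKM in the si2-BCLIN25 libraries and 35.2, 35.6 and 35.1 FPKM in the si-NC libraries. The groups overlap and the log2 fold changes were -0.015 and 0.038 (limma adjusted p = 0.772 and 0.446, SE 0.041). Reads of MAP1LC3B may be split with its near-identical copy MAP1LC3B2, which lay between 1.02 and 2.90 FPKM. GABARAPL2 rose in si2-BCLIN25 (0.22, limma adjusted p = 0.00287) and did not pass in si1-BCLIN25 (0.12, limma adjusted p = 0.0554). Without si-NC replicate 1 or si2-BCLIN25 replicate 2 it was called in si1-BCLIN25 too (0.0312 and 0.0468), as under quantile normalization (0.0499). The libraries of GABARAPL2 stood at 43.1, 43.4 and 46.9 FPKM in the si1-BCLIN25 libraries, 45.7, 50.4 and 46.6 FPKM in the si2-BCLIN25 libraries and 42.5, 38.2 and 41.5 FPKM in the si-NC libraries. Among the ATG8 genes the order of levels in si-NC was GABARAP, GABARAPL2, MAP1LC3B and GABARAPL1. GABARAPL2 and MAP1LC3B did not overlap there, at 38.2 to 42.5 and 35.1 to 35.6 FPKM.

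Cargo receptors, which tie ubiquitinated cargo to ATG8 proteins, both rose. Optineurin (OPTN, gene 10133) had 30.9, 31.8 and 29.8 FPKM in the si1-BCLIN25 libraries, 32.9, 32.5 and 33.1 FPKM in the si2-BCLIN25 libraries and 20.4, 18.6 and 20.7 FPKM in the si-NC libraries. OPTN rose without overlap, with log2 fold changes of 0.61 and 0.70 (limma adjusted p = 1.6e-07 and 5.0e-08, SE 0.045). NBR1 had 31.5, 32.9 and 31.4 FPKM in the si1-BCLIN25 libraries, 32.8, 33.2 and 33.6 FPKM in the si2-BCLIN25 libraries and 25.7, 24.9 and 26.6 FPKM in the si-NC libraries and rose by 0.30 and 0.35 (limma adjusted p = 2.2e-05 and 5.5e-06).

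Of 5 genes that start autophagy or supply its membrane, 4 were called higher and 1 lower with si1-BCLIN25, and 3 higher and 1 lower with si2-BCLIN25. That is 100% and 80% called, beside 63.1% and 63% of all genes. ATG9A, a scramblase that brings membrane to the forming autophagosome, had 15.6, 15.9 and 13.99 FPKM in the si1-BCLIN25 libraries, 15, 15.2 and 14.4 FPKM in the si2-BCLIN25 libraries and 10.1, 12.1 and 11.4 FPKM in the si-NC libraries and rose by 0.41 and 0.38 (limma adjusted p = 0.000132 and 0.00023). Its 50 tested neighbours on chromosome 2 had medians of 0.20 and 0.12. ULK1, the kinase that starts the process, had 7.78, 7.35 and 6.47 FPKM in the si1-BCLIN25 libraries, 6.94, 7.18 and 6.7 FPKM in the si2-BCLIN25 libraries and 5.34, 6.33 and 6.07 FPKM in the si-NC libraries, and rose by 0.25 and 0.20 (limma adjusted p = 0.00908 and 0.0253). Under quantile normalization neither ULK1 call held (limma adjusted p = 0.0539 and 0.216), and the si2-BCLIN25 call was lost without si2-BCLIN25 replicate 1 or 2 or si-NC replicate 1 (0.0585, 0.0806 and 0.105) and under median centring or a common FPKM sum (0.07 and 0.067). BECN1, a subunit of the lipid kinase complex that marks the site, had 48.8, 48.98 and 46.9 FPKM in the si1-BCLIN25 libraries, 48.98, 48.7 and 50.1 FPKM in the si2-BCLIN25 libraries and 45.6, 42.98 and 45.2 FPKM in the si-NC libraries and rose by 0.11 and 0.14 (limma adjusted p = 0.0192 and 0.00508). Its si1-BCLIN25 call was lost without si1-BCLIN25 replicate 1 or 2 or si-NC replicate 2 (0.0577, 0.0597 and 0.0708). Median centring ended both calls (0.167 and 0.0544), and a common FPKM sum ended the si1-BCLIN25 call (0.233). The 50 tested neighbours of BECN1 on chromosome 17 had medians of 0.16 and 0.11, near its own changes, and their part was not tested. WIPI1, a reader of that lipid, had 12.8, 12.1 and 13.9 FPKM in the si1-BCLIN25 libraries, 12.6, 13.4 and 12.4 FPKM in the si2-BCLIN25 libraries and 15.4, 16.1 and 15.5 FPKM in the si-NC libraries. It fell without overlap, by 0.26 and 0.27 (limma adjusted p = 0.000819 and 0.000573). WIPI2, its relative, rose in si1-BCLIN25 (0.13, limma adjusted p = 0.00933), not under median centring (0.0836) or a common FPKM sum (0.0893), and did not pass in si2-BCLIN25 (0.028, limma adjusted p = 0.549).

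The conjugation enzymes were mixed. ATG16L1, which places the conjugation complex on the membrane, had 7.59, 7.32 and 7.26 FPKM in the si1-BCLIN25 libraries, 7.43, 7.31 and 7.81 FPKM in the si2-BCLIN25 libraries and 9.29, 9.05 and 9.03 FPKM in the si-NC libraries. It fell without overlap, by 0.27 and 0.25 on the log2 scale (limma adjusted p = 0.000237 and 0.000453, SE 0.046). ATG5, its partner in that complex, had 23.3, 24.2 and 23.4 FPKM in the si1-BCLIN25 libraries, 25.9, 25.4 and 26.1 FPKM in the si2-BCLIN25 libraries and 21.3, 19.5 and 21.6 FPKM in the si-NC libraries and rose by 0.18 and 0.30 (limma adjusted p = 0.00356 and 7.3e-05). ATG7, the activating enzyme, had 33.8, 33.9 and 35.3 FPKM in the si1-BCLIN25 libraries, 34.8, 33.8 and 32.6 FPKM in the si2-BCLIN25 libraries and 31.7, 31.8 and 29.9 FPKM in the si-NC libraries. ATG7 rose by 0.14 and 0.11 (limma adjusted p = 0.00975 and 0.0265), and neither call held under median centring (0.0768 and 0.206) or a common FPKM sum (0.0803 and 0.0987). In si2-BCLIN25 it was also lost without si2-BCLIN25 replicate 1 or 2 or si-NC replicate 3 (0.107, 0.0667 and 0.104). ATG12, the ubiquitin-like tag joined to ATG5, had 10.1, 9.24 and 10.2 FPKM in the si1-BCLIN25 libraries, 10.2, 11.2 and 11.6 FPKM in the si2-BCLIN25 libraries and 10.1, 9.19 and 10.1 FPKM in the si-NC libraries. It did not pass in si1-BCLIN25 (0.01) and rose in si2-BCLIN25 (0.15, limma adjusted p = 0.0397), a call lost in all 3 other scalings (0.11 to 0.252) and without si2-BCLIN25 replicate 2 or 3 or si-NC replicate 2 (0.105, 0.152 and 0.141). ATG3, the enzyme that passes ATG8 to its lipid, was picked for a full account after its values were seen, and had 37.5, 37.8 and 39.7 FPKM in the si1-BCLIN25 libraries, 43.98, 43.8 and 43.3 FPKM in the si2-BCLIN25 libraries and 41.7, 39.4 and 40.2 FPKM in the si-NC libraries. ATG3 did not pass in si1-BCLIN25 (-0.075, limma adjusted p = 0.0972), where it was called lower under median centring (0.0161) and a common FPKM sum (0.00837). In si2-BCLIN25 ATG3 rose by 0.11 (limma adjusted p = 0.021), not under those scalings (0.21 and 0.0936) nor without si2-BCLIN25 replicate 1 or 2 or si-NC replicate 2 or 3 (0.0514 to 0.0669).

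**Figure D4:**
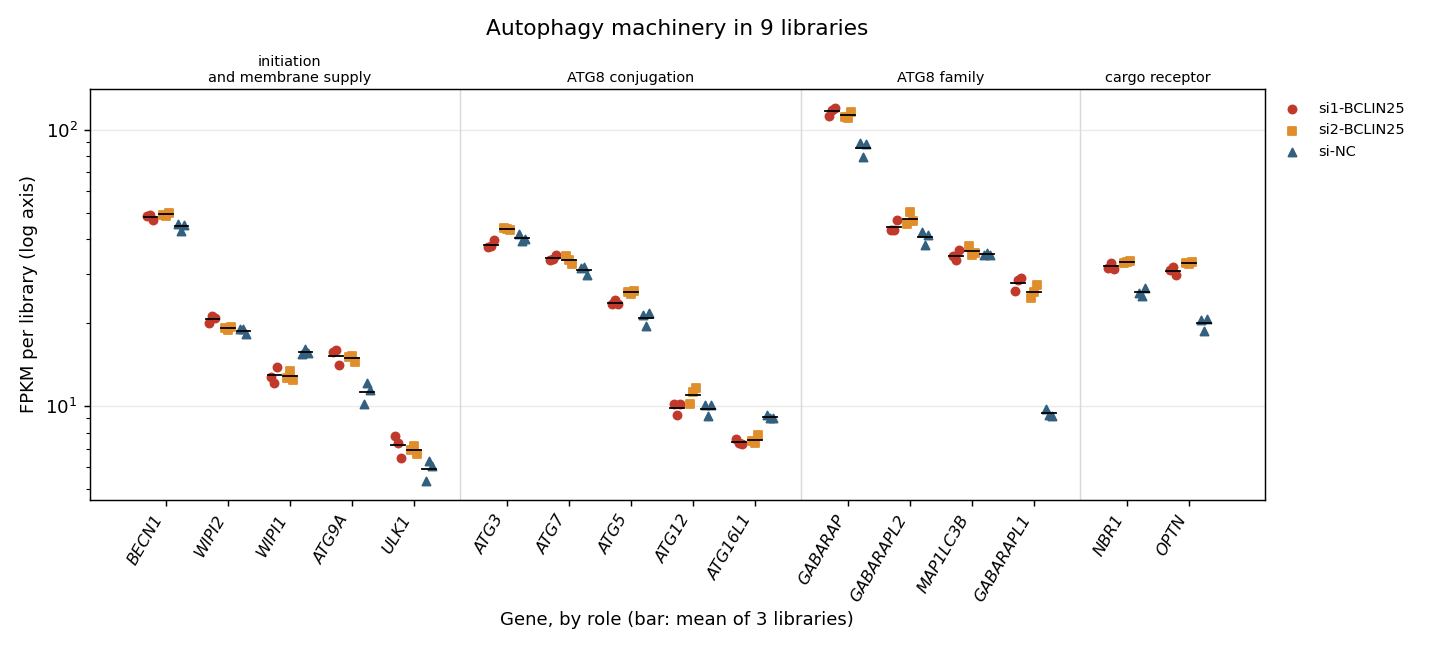
FPKM per library (y axis, log scale) of 16 autophagy genes (x axis), by role, with si1-BCLIN25 circles, si2-BCLIN25 squares, si-NC triangles and a bar at each mean of 3 libraries. GABARAPL1 separates most, at 24.5 to 29.1 FPKM in the siRNA libraries and 9.2 to 9.7 FPKM in si-NC, while MAP1LC3B overlaps between groups.

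Between the siRNA groups no gene of the set was called. Of all 12317 genes 0.585% were called in si1-BCLIN25 against si2-BCLIN25, and of the 48 genes 0 were called by limma, with 13 (27.1%) at an unadjusted p under 0.05 beside 17.8% of all genes. Differences lay between -0.19 and 0.19 on the log2 scale, and their 95% intervals reached from -0.30 to 0.32, so the missed threshold does not show that the levels were equal. ATG3 came closest, at -0.19 (SE 0.037, limma adjusted p = 0.0514), with every si1-BCLIN25 library below every si2-BCLIN25 library. Such separation was seen for 16 of the 48 genes, beside 25.9% of all genes. LAPTM5 followed, at 0.18 (SE 0.0395, limma adjusted p = 0.0669), with si1-BCLIN25 above si2-BCLIN25. ATG3 was called under quantile normalization (0.0485), a common FPKM sum (0.0352), a minimum of 5 FPKM (0.0403), with only these 2 groups in the fit (0.0369) and without si-NC replicate 1 (0.0401) or 2 (0.0447). The other alternatives did not call ATG3 (limma adjusted p of 0.0544 to 0.193), among them each fit without a library of either siRNA group (0.0777 to 0.193). LAPTM5 was called with only these 2 groups in the fit (0.0355) and without si-NC replicate 3 (0.0429). It was not called in the other alternatives (limma adjusted p of 0.054 to 0.219).

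A wider list of 136 genes of the same pathways, chosen by function, gave the surroundings of the set. Of 130 that could be tested 59 were called higher and 21 lower with si1-BCLIN25 (61.5% called), while with si2-BCLIN25 57 were called higher and 20 lower (59.2%), close to the 63.1% and 63% of all genes, with medians of 0.089 and 0.08. SIAE, ATP6V1C2, MAP1LC3A, TFEC, SESN3 and DEPTOR did not reach the filter.

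Other lysosomal hydrolases rose more often than they fell, as did all genes tested. Of 29 tested, 17 were called higher and 3 lower with si1-BCLIN25, while with si2-BCLIN25 15 were called higher and 4 lower. The called share was 69% and 65.5%, beside 63.1% and 63% of all genes. Quantile normalization gave 14 higher and 5 lower for si1-BCLIN25, 14 and 7 for si2-BCLIN25. Medians of the list were 0.20 and 0.19, beside 0.061 and 0.063 over all genes. Beta-mannosidase (MANBA) averaged 22.98 ± 1.7 FPKM in si1-BCLIN25, 21.3 ± 0.65 FPKM in si2-BCLIN25 and 12.5 ± 0.097 FPKM in si-NC (SD, n = 3 each), a rise of 0.83 and 0.73 (limma adjusted p = 2.9e-08 and 1.1e-07). The cathepsin CTSV, a close relative of CTSL, averaged 18.7 ± 1.5 FPKM in si1-BCLIN25, 17.3 ± 0.29 FPKM in si2-BCLIN25 and 10.2 ± 0.87 FPKM in si-NC (SD, n = 3 each), up by 0.81 and 0.71. Legumain (LGMN), which cleaves cathepsin precursors after asparagine, averaged 38.5 ± 0.37 FPKM in si1-BCLIN25, 36.6 ± 1.5 FPKM in si2-BCLIN25 and 23.1 ± 1.5 FPKM in si-NC (SD, n = 3 each), up by 0.72 and 0.64. The acid nuclease DNASE2 rose as well, by 0.63 and 0.70, with limma adjusted p = 1.3e-06 and 5.0e-07. Each of these genes separated the siRNA libraries from si-NC.

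Among 24 other genes of the membrane and of sorting to the lysosome, 10 were called higher and 7 lower with si1-BCLIN25. With si2-BCLIN25 9 were called higher and 6 lower. Calls made up 70.8% and 62.5% of this list, beside 63.1% and 63% of all genes. LAMP3, a LAMP relative induced by interferon and stress, was low and had 3.85, 3.31 and 3.84 FPKM in the si1-BCLIN25 libraries, 3.94, 4.01 and 3.59 FPKM in the si2-BCLIN25 libraries and 1.11, 1.12 and 1.05 FPKM in the si-NC libraries. LAMP3 rose by 1.15 and 1.21 (limma adjusted p = 2.0e-08 and 1.4e-08, SE 0.068). NPC2, the cholesterol carrier of the lysosomal lumen, had 168, 207 and 193 FPKM in the si1-BCLIN25 libraries, 188, 188 and 190.3 FPKM in the si2-BCLIN25 libraries and 306, 279 and 286 FPKM in the si-NC libraries. NPC2 fell by 0.62 in each group (limma adjusted p = 3.1e-06 and 3.3e-06, SE 0.063), and it was more abundant than any hydrolase other than CTSC in si-NC. The ion channel TMEM175 and the sialic acid exporter SLC17A5 rose, by 0.77 and 0.80 and by 0.52 and 0.56.

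Of 12 further V-ATPase subunits 4 were called higher and 3 lower with si1-BCLIN25, while with si2-BCLIN25 5 were called higher and 3 lower. Their called share, 58.3% and 66.7%, was near the 63.1% and 63% of all genes. Under a common FPKM sum the split was 3 and 4 with si1-BCLIN25, 4 and 4 with si2-BCLIN25. Within the family of membrane subunits TCIRG1 rose (0.44 and 0.45) and ATP6V0A1 rose (0.22 and 0.27) while ATP6V0A2 fell (-0.38 and -0.31). ATP6V0E1 rose by 0.23 and 0.24. All 4 passed in both groups, with limma adjusted p between 2.4e-06 and 0.00312.

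Of 38 other autophagy genes 17 were called higher and 4 lower with si1-BCLIN25, while with si2-BCLIN25 19 were called higher and 6 lower. Calls thus reached 55.3% and 65.8% of the list, near the 63.1% and 63% of all genes. Under quantile normalization 15 were called higher and 9 lower with si1-BCLIN25, while with si2-BCLIN25 14 were called higher and 8 lower, and the other 2 scalings gave 13 and 7 in si1-BCLIN25. ZFYVE1, a lipid-binding marker of the sites where autophagosomes form, rose by 0.59 and 0.57, and ATG10, the enzyme that joins ATG12 to ATG5, by 0.60 and 0.52. The cargo receptor CALCOCO2 (NDP52) averaged 25.8 ± 0.57 FPKM in si1-BCLIN25, 28.5 ± 0.91 FPKM in si2-BCLIN25 and 18.5 ± 1.6 FPKM in si-NC (SD, n = 3 each) and rose by 0.46 and 0.60 (limma adjusted p = 9.8e-06 and 9.7e-07). BNIP3L, a receptor for the removal of mitochondria, had 26.7, 25.8 and 25.2 FPKM in the si1-BCLIN25 libraries, 27.9, 30.3 and 26.8 FPKM in the si2-BCLIN25 libraries and 35.8, 36.1 and 39.7 FPKM in the si-NC libraries. BNIP3L fell by 0.51 and 0.38 (limma adjusted p = 3.8e-06 and 4.7e-05, SE 0.053), without overlap.

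Of 27 genes of mTORC1 and of TFEB control 11 were called higher and 4 lower with si1-BCLIN25 (8 and 6 in each of the 3 other scalings), while with si2-BCLIN25 9 were called higher and 1 lower (6 and 4 under quantile normalization, 8 and 3 under median centring). The shares called, 55.6% with si1-BCLIN25 and 37% with si2-BCLIN25, were below the 63.1% and 63% of all genes. The stress-induced mTORC1 inhibitors SESN2 and DDIT4 rose. SESN2 had 6.22, 6.29 and 6.43 FPKM in the si1-BCLIN25 libraries, 6.71, 6.37 and 6.84 FPKM in the si2-BCLIN25 libraries and 3.8, 3.91 and 3.27 FPKM in the si-NC libraries, a difference of 0.65 and 0.72 (limma adjusted p = 1.4e-06 and 6.1e-07, SE 0.061). DDIT4 averaged 116 ± 4.1 FPKM in si1-BCLIN25, 112 ± 1.1 FPKM in si2-BCLIN25 and 82.7 ± 1.6 FPKM in si-NC (SD, n = 3 each) and rose by 0.48 and 0.44 (limma adjusted p = 1.6e-07 and 3.8e-07). The arginine sensor CASTOR1 averaged 1.21 ± 0.14 FPKM in si1-BCLIN25, 1.17 ± 0.31 FPKM in si2-BCLIN25 and 0.61 ± 0.23 FPKM in si-NC (SD, n = 3 each). The AMPK subunit PRKAA2 averaged 1.13 ± 0.15 FPKM in si1-BCLIN25, 1.34 ± 0.2 FPKM in si2-BCLIN25 and 0.49 ± 0.075 FPKM in si-NC (SD, n = 3 each). Both are counted among the genes called higher, but they passed the filter only through their siRNA libraries, so these values are a description, and quantile normalization ended both CASTOR1 calls.

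**Figure D5:**
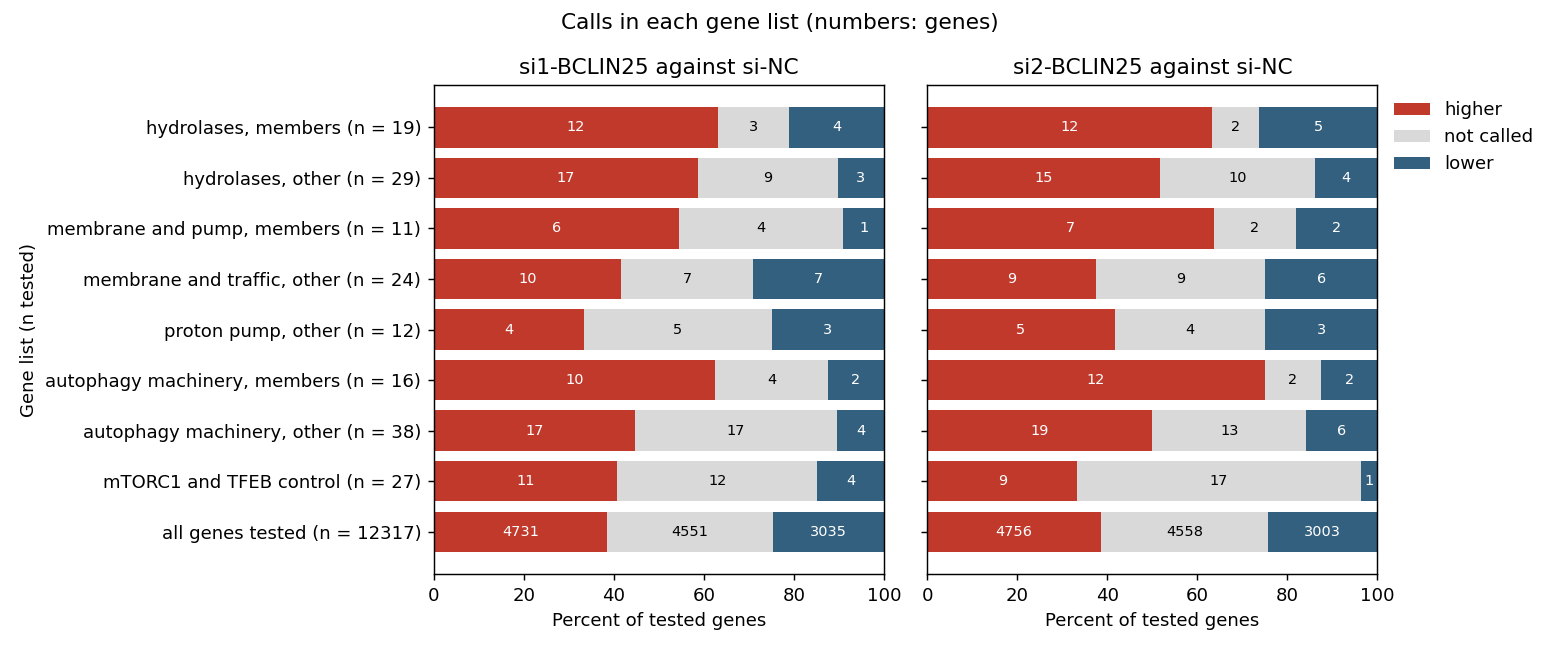
Share of tested genes (x axis, percent) called higher, not called or called lower in si1-BCLIN25 (left) and si2-BCLIN25 (right) against si-NC, by gene list (y axis), with gene numbers in the bars. The 19 hydrolase and 16 autophagy genes have 12 and 10 called higher for si1-BCLIN25, 12 and 12 for si2-BCLIN25, beside 4731 and 4756 of 12317 genes in all.

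Genes whose promoter windows held TCACGTG did not move together. GAA, with 2 full palindromes in the stretch shown, CTSD, LAMP1 and CLN3 rose in both siRNA groups. NEU1, with a copy that begins 127 bases before the start, fell in both. MCOLN1, with 1 full palindrome, and CTSA had no call in si1-BCLIN25 and were called lower in si2-BCLIN25. ATP6V0D1 was called higher in si1-BCLIN25 and ATG3 in si2-BCLIN25. As given above, the calls of MCOLN1, CTSA, ATP6V0D1 and ATG3 were each lost on leaving out single libraries. GABARAPL1 and LIPA, which both rose, held none of the motifs searched for in their windows. Genes with and without the motif were not compared as groups, and the part of the motif in these changes was not tested.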

How the data were processed

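Total RNA of 9 libraries was sequenced on a BGI500, per the labels' protocols. The deposited table gives FPKM per gene, computed by the authors, per the file headers. The submitters' processing notes name DESeq2 1.4.5, RSEM 1.2.12, Bowtie2 2.2.5 and HISAT2 2.0.4 without saying what each did. Neither build nor annotation is given in the sources used here. Depth is unknown: of 2209 low genes 31.2% had values that were whole multiples of a smallest step (tolerance 0.1), and 18.2% without the smallest values, so reads were not recovered.

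Genes were matched by Entrez identifier (17748 of 18064 rows had a symbol). Genes reaching 1 FPKM in 3 or more libraries were tested, 12317 in all, on log2(FPKM + 1) with limma 3.58.1 in R 4.3.3, with group means over all 9 libraries, a variance trend and Benjamini-Hochberg adjustment (threshold 0.05). Fold changes on this scale understate changes of low genes. The step was tested on simulated data. The 48 genes, the wider lists and the marker lists were chosen with earlier results of these data known. A further marker is not reported here. Libraries are given one by one for up to 4 called genes per role by mean absolute log2 fold change, and for LAMP1, LAMP2, CTSD, TFEB, TFE3, MAP1LC3B and BECN1. From each wider list up to 4 called genes are named by the same measure. Alternatives covered scaling, filter, pseudocount (0.1), variance trend, groups fitted, each library left out, a minimum fold and a replicate block. Promoter windows span 250 bases before to 50 after the start.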

Additional observations from a re-analysis of the deposited data

How the results depend on the processing

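Among the 48 genes, si1-BCLIN25 had 37 called and si2-BCLIN25 had 42, and the numbers under other scalings, filters, pseudocount, variance model or groups fitted stayed within 33 and 42. With a fold minimum of 0.5 on the log2 scale 8 genes, 6 hydrolases and 2 autophagy genes were called in si1-BCLIN25, and 9, 6 and 2 in si2-BCLIN25. Median centring called 9 autophagy genes in si2-BCLIN25, against 14. In si1-BCLIN25 against si2-BCLIN25, where 0 were called, quantile normalization, a common FPKM sum and a minimum of 5 FPKM each called 1 gene, an autophagy gene, and a fit of only those 2 groups called 2 genes, of which 1 an autophagy gene. Leaving out each library in turn gave 34 to 38 genes, 15 to 17 hydrolases and 11 to 13 autophagy genes in si1-BCLIN25, 34 to 42, 15 to 17 and 10 to 14 in si2-BCLIN25, and 0 to 1, 0 to 0 and 0 to 1 between the siRNA groups. A replicate block left 37, 42 and 0 genes called. Same-numbered libraries did not deviate together (r of -0.164 to 0.139, 1 of 9 pairs over 0.1, own number best in 3 of 18 cases), so the numbers do not pair the libraries. Differently numbered libraries ranged from r of -0.193 (si2-BCLIN25 replicate 3 with si-NC replicate 2) to 0.218 (si1-BCLIN25 replicate 1 with si-NC replicate 3). A batch that does not follow the numbers was not tested, and the replicate block does not cover it. Of 1726 alternative values over 96 fold changes 1594 kept direction and side of the threshold, 88 lost the call, 6 gained it and 38 changed sign. The sign changes touched log2 values near 0 that had no call, and the cause was not tested. Quantile normalization put SMPD1 at -0.0535, ATP6V1B2 at 0.00173, ATG12 at -0.0538, MAP1LC3B at 0.0019 in si1-BCLIN25 and ATP6V0D1 at 0.000846 in si2-BCLIN25. Median centring put CTSA at -0.0275, SMPD1 at -0.0344, ATP6V1H at -0.0359, ATG12 at -0.0382 in si1-BCLIN25 and WIPI2 at -0.0233, MAP1LC3B at -0.0133 in si2-BCLIN25. Common FPKM sum put CTSA at -0.0333, SMPD1 at -0.0358, ATP6V1A at -0.00472, ATP6V1H at -0.0419, ATG12 at -0.0403 in si1-BCLIN25 and WIPI2 at -0.00624 in si2-BCLIN25. Leaving out each library gave fold changes on both sides of 0 for CTSA -0.0334 to 0.057, SMPD1 -0.063 to 0.103, MCOLN1 -0.0525 to 0.0622, ATP6V1B2 -0.044 to 0.0123, ATP6V1H -0.00917 to 0.0255, ATG12 -0.0295 to 0.0513, MAP1LC3B -0.0456 to 0.012 in si1-BCLIN25 and for SMPD1 -0.0757 to 0.0392, ATP6V0D1 -0.071 to 0.0383, ATP6V1B2 -0.0526 to 0.0107 in si2-BCLIN25.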
